A study of Mus musculus with 21 samples.

Results

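Tumour cells of the mouse pancreatic cancer clone 6419c5 carrying the label EPHA2-KO, line A (KOA), were compared with the parental 6419c5 line (WT). The comparison takes 6 of the 21 libraries of the series, 3 of KOA and 3 of WT, and was fixed by the column names of the expression table. Cells of clones 6419c5 and 6694c2 had been implanted under the skin of C57BL/6 mice without treatment, and tumour cells were sorted back from the tumours after 3 weeks before total RNA was sequenced. A second line labelled EPHA2-KO (KOB, 3 libraries) was made from 6419c5, and 6694c2 was represented by its own KOA, KOB and WT lines with 4 libraries each. The label WT means here only that the titles carry the clone name alone. No source used here says how EPHA2 was edited, whether a knockout line is 1 clone, how the cells were sorted, or that libraries of a line came from separate mice. The p-values therefore measure the spread between libraries, and they cannot tell the effect of the knockout apart from other differences between 1 line and another. Of 24623 genes in the table, 13209 had at least 1 TPM in at least 3 of the 6 libraries and were tested, and 11414 were not. Of the genes tested, 124 stayed under 1 TPM in all WT libraries and so entered through KOA, and 154 stayed under 1 TPM in all KOA libraries and entered through WT.

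EPHA2 belongs to the Eph family of receptor tyrosine kinases. These receptors sit in the plasma membrane and bind ephrins on neighbouring cells, which passes signals in both directions and affects adhesion, migration and the RAS to ERK pathway. EPHA2 is abundant in many epithelial tumours, pancreatic ductal carcinoma among them. Interferon gamma, made mainly by T and NK cells, acts through JAK kinases to switch on genes of antigen presentation, T cell chemokines and GTPases of cell-autonomous defence.

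TPM (transcript abundance per gene length and library) is a relative measure that sums to 1000000 in each library and keeps no read count, so the depth of the libraries is unknown. Between 12670 and 13228 genes reached 1 TPM in the 6 libraries. Across genes, on the log2(TPM + 1) scale, Pearson's r ran from 0.957 to 0.984 between libraries of a group and from 0.922 to 0.948 between a KOA and a WT library. The non-coding RNA Mir6236 held 91140 TPM in WT library 3 and 27910 to 46030 TPM in the other 8 libraries of the clone. KOA library 2 stood apart in markers of macrophages and other myeloid cells. The 22 markers summed to 458.2, 5317 and 393.6 TPM in KOA libraries 1 to 3, against 1205, 3125 and 2777 TPM in WT libraries 1 to 3. Results that this library decides are given with and without it. Ductal and tumour epithelium markers summed to 22657 to 27044 TPM in KOA and 26243 to 29497 TPM in WT libraries. The islet genes Ins1, Ins2, Gcg, Sst and Ppy were listed at 0 in all 6.

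The targeted gene was the first to be examined. Epha2 (chromosome 4, 141301221 to 141329384, RefSeq GRCm38.p6, which is mm10) measured 143.8, 152.1 and 155.6 TPM in KOA libraries, against 163.6, 174.6 and 190.4 TPM in WT libraries. The groups did not overlap, but the change of −0.22 ± 0.12 (log2, SE) did not pass the test (limma, adjusted p 0.165), and the exact two-sided permutation test gave 0.1, the smallest p that 3 against 3 libraries allow. Other scalings moved it past the threshold, to −0.27 with median-of-ratios size factors (adjusted p 0.0275) and to −0.31 after quantile normalization (adjusted p 0.019). In KOB libraries Epha2 measured 169.7, 200.7 and 220.8 TPM. KOA lay below KOB by −0.38 (adjusted p 0.0356), a call that was lost without any of KOA libraries 1, 2 and 3 or KOB libraries 2 and 3 (adjusted p 0.06 to 0.157). The change of Epha2 in KOA differed from that in the knockout lines of 6694c2 by 0.99 ± 0.15 (adjusted p 0.000112); it averaged 114.9 ± 18.3 TPM in KOA, 97.8 ± 11.4 TPM in KOB and 244.7 ± 5.11 TPM in WT of that clone (SD, n = 4 each). A gene-level TPM says nothing about the protein and cannot see a small edit in a transcript that is still made.

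Of the 14 Eph receptors listed, 7 were tested and 4 fell in KOA, with a median over the 7 of −0.48. Over all genes tested, 20.7% were called higher and 13.5% lower in KOA, and the median change was 0.04. Epha4 measured 3.55, 1.95 and 3.88 TPM in KOA and 8.65, 9.39 and 8.57 TPM in WT (−1.29 ± 0.26, adjusted p 0.000737). Epha7 was at 2.2 to 3.03 TPM in KOA and 4.04 to 4.85 TPM in WT (−0.57, adjusted p 0.0012). The calls of Ephb3 (−0.94, adjusted p 0.0108) and Epha1 (−0.48, adjusted p 0.0125) were less firm: that of Ephb3 was lost without KOA library 2 (0.0601) or WT library 3 (0.0673), and that of Epha1 without WT library 1 (0.0539). Ephb4 measured 73.7 to 99.8 TPM in KOA and 67 to 69.6 TPM in WT and did not pass (0.25, adjusted p 0.119). Among 6 tested ephrins, Efna5, a membrane-anchored ligand of EphA receptors, fell to 13.2, 11.1 and 13.6 TPM in KOA, against 22, 25 and 36.7 TPM in WT (−1.05 ± 0.15, adjusted p 3.38e-05). The other 5 did not pass; Efna1, a main ligand of EPHA2, measured 48.1 to 59.8 TPM in KOA and 34.4 to 52.1 TPM in WT (0.30, adjusted p 0.381).

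Across all genes limma called 4521, of which 2736 were higher and 1785 lower in KOA. Among them, 533 of the higher and 448 of the lower genes changed by 1 or more (log2). All KOA libraries lay above all WT libraries in 3316 genes (25.1%) and below them in 2183 (16.5%). The share of calls that were higher was 60.5%, and it depended on the scale: it was 52.1% with median-of-ratios size factors (2548 higher, 2342 lower) and 50.3% after quantile normalization (2569 higher, 2538 lower).

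Genes with the largest increases belonged mostly to the interferon response and to keratins. Ubd (chromosome 17, 37193892 to 37196101), a ubiquitin-like modifier that sends proteins to the proteasome, measured 55.1, 39.3 and 28.4 TPM in KOA, against 0.443, 1.86 and 0 TPM in WT libraries (4.66 ± 0.51, adjusted p 1.74e-06). Cxcl9 (chromosome 5, 92321331 to 92328079), a ligand of the chemokine receptor Cxcr3 on T cells, measured 65.4, 66.2 and 59.3 TPM in KOA and 0.627, 1.78 and 5.48 TPM in WT (4.39 ± 0.51, adjusted p 3.39e-06). Ido1, which starts the breakdown of tryptophan, reached 18.6, 15.9 and 9.96 TPM in KOA and stayed at 0.232, 0.535 and 0.325 TPM in WT (3.50 ± 0.45, adjusted p 9.06e-06). Each of these genes was at or below 5.48 TPM in every WT library and at 9.96 TPM or more in every KOA library. Ido1 stayed under 1 TPM in every WT library and so entered the test through KOA, which left a rise as its only direction. Krt14, a keratin of basal cells of stratified epithelia, measured 54.5, 27.7 and 26.2 TPM in KOA and 1.66, 1.74 and 1.81 TPM in WT (3.68 ± 0.24, adjusted p 4.91e-09). Krt79, a keratin of hair follicle and sebaceous duct epithelium, measured 155.2, 83.5 and 64.9 TPM in KOA and 5.33, 10 and 5.03 TPM in WT (3.67 ± 0.30, adjusted p 6.47e-08). Gjb2 encodes a gap junction connexin and was at 21.3 to 32.9 TPM in KOA and 0.731 to 2.48 TPM in WT (3.46). Actr3b, an actin-related protein of the Arp3 kind, was at 14 to 21.6 TPM in KOA and 0.564 to 1.14 TPM in WT (3.31). Chil4, a secreted chitinase-like protein, varied widely among the KOA libraries, with 2850, 477.8 and 461.4 TPM, against 22.5, 216.4 and 55.3 TPM in WT (3.70 ± 0.81, adjusted p 0.00166). Tgtp1, Tgtp2, Gbp2, Gbp4, Cxcl10 and Iigp1 complete the 14 largest and are described with the interferon genes.

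**Figure D1:**
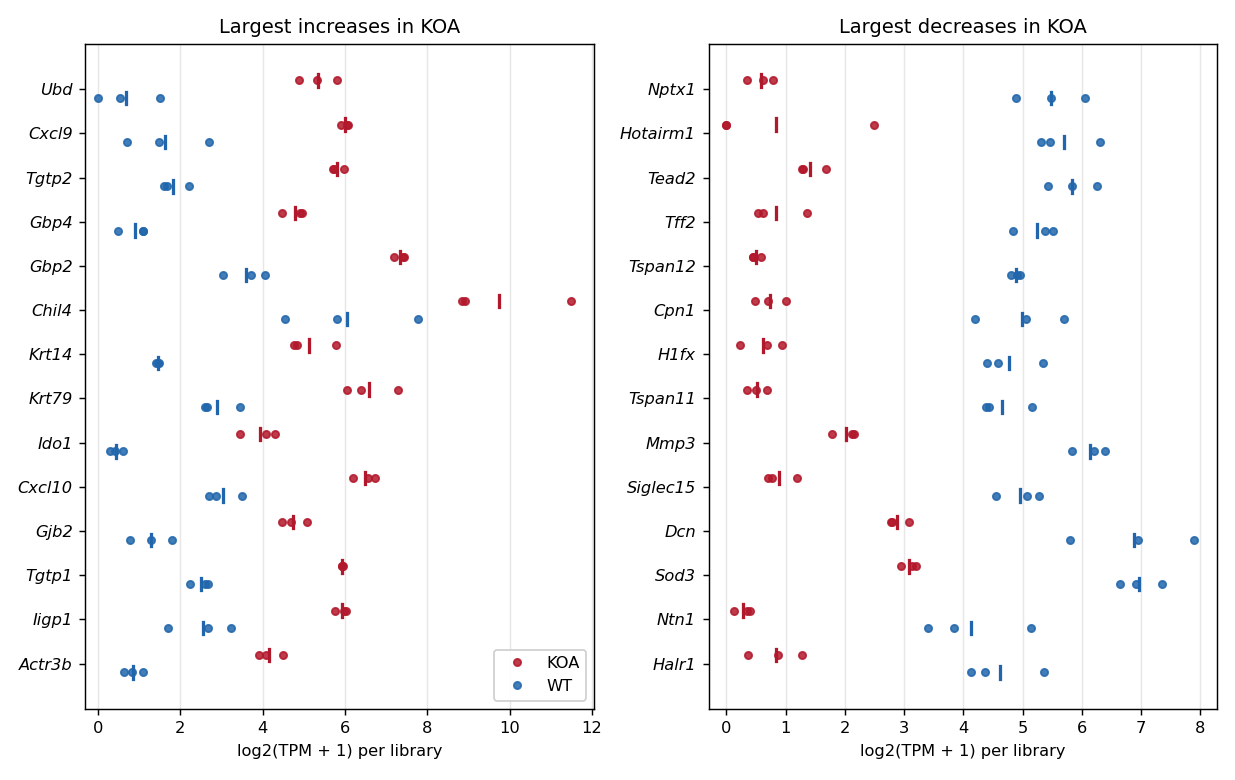
TPM of the 14 genes with the largest increases and the 14 with the largest decreases, as log2(TPM + 1) on the horizontal axis, with a point for each KOA library (red) above each WT library (blue) and a tick at the mean of a group. The groups do not overlap for any of the 28 genes, which the choice of genes required, and Chil4 has its KOA library 1 at 2850 TPM, apart from the other two.

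The largest decreases took several genes close to 0 in KOA. Nptx1 (chromosome 11, 119538719 to 119547820), a secreted pentraxin known from neurons, measured 0.535, 0.273 and 0.729 TPM in KOA, against 28.6, 43.4 and 65.6 TPM in WT (−4.89 ± 0.25, adjusted p 2.38e-10). Tead2, a DNA-binding partner of YAP, measured 1.45, 1.42 and 2.2 TPM in KOA and 75.3, 41.8 and 56 TPM in WT (−4.42 ± 0.21, adjusted p 1.34e-10). Tspan12, a tetraspanin known as a co-receptor of Frizzled signalling, was at 0.363 to 0.497 TPM in KOA and 26.9 to 30.1 TPM in WT (−4.40 ± 0.16, adjusted p 3.34e-12). None of these 3 genes passed 2.2 TPM in a KOA library, and in WT libraries none was under 26.9 TPM. Hotairm1, a long non-coding RNA between Hoxa genes, was listed at 0 in KOA libraries 1 and 2 and at 4.6 TPM in library 3, against 78.1, 43.3 and 38.7 TPM in WT. The stomach trefoil peptide Tff2 measured 0.53, 0.451 and 1.56 TPM in KOA and 40.5, 27.7 and 44.5 TPM in WT (−4.41 ± 0.39, adjusted p 1.27e-07). Secreted and matrix proteins made up a further group. Mmp3, a stromelysin, was at 2.45 to 3.46 TPM in KOA and 56 to 82.6 TPM in WT (−4.12). Dcn, the proteoglycan decorin, was at 5.83 to 7.46 TPM in KOA and 54.9 to 236.7 TPM in WT (−4.00). Sod3, extracellular superoxide dismutase, was at 6.67 to 8.18 TPM in KOA and 98.7 to 162.3 TPM in WT (−3.88). Guidance cue Ntn1 and the carboxypeptidase N subunit Cpn1 fell by 3.84 and 4.25, and the tetraspanin Tspan11 and the linker histone gene H1fx by 4.14 and 4.16. Siglec15, a sialic acid-binding receptor, fell by 4.08 to 0.626, 0.711 and 1.27 TPM in KOA, against 32.5, 22.4 and 37.6 TPM in WT. The Hoxa-linked non-coding RNA Halr1 fell by 3.78. Nptx1, Tspan12, Tspan11, H1fx and Ntn1 were under 1 TPM in every KOA library and entered the test through WT. Their direction therefore followed from the filter. A change on this scale understates that of genes with low values, because 1 TPM was added before the logarithm.

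**Figure D2:**
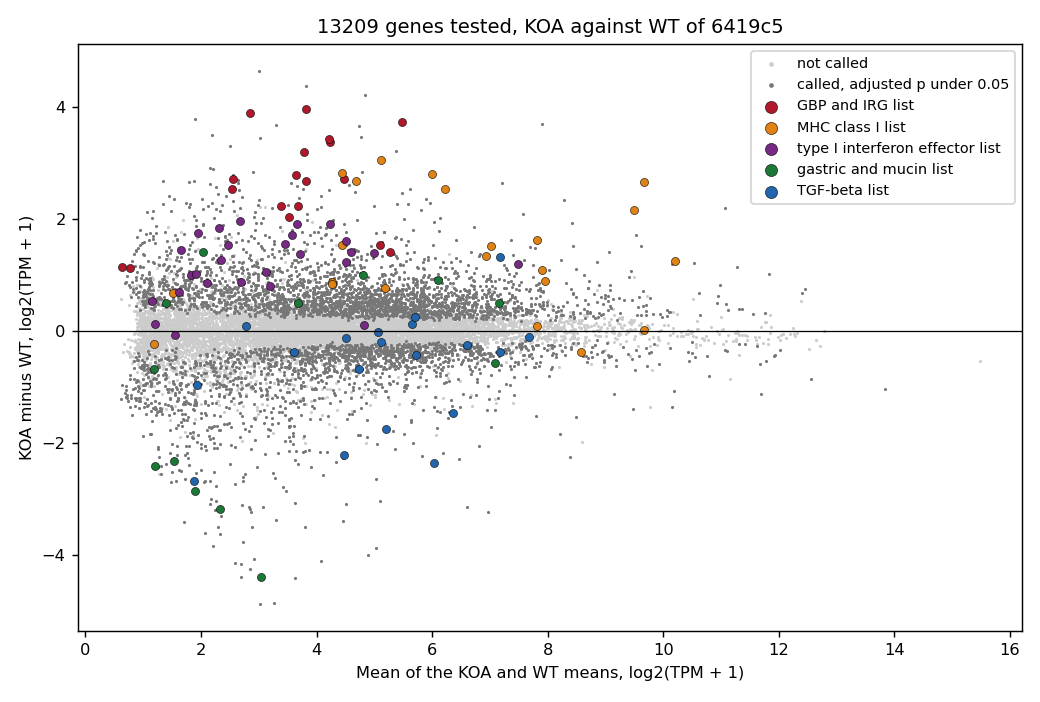
Change of each of the 13209 tested genes, KOA minus WT of log2(TPM + 1), on the vertical axis against the mean level of both groups on the horizontal axis, with members of 5 lists in colour. Members of the guanylate-binding protein, MHC class I and type I interferon lists lie mostly above 0, with list medians of 2.70, 1.30 and 1.26.

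The promoters of 5 interferon-related genes are shown because they hold letters that resemble the sites of interferon-activated factors. They are the 5 genes with the largest increases among the named members of the interferon, MHC class I and T cell chemokine lists for which a motif was found. Each line gives the 250 bases before the start of the gene from RefSeq (GRCm38.p6), 5′ to 3′ on the strand of the gene. Capitals mark TTCNNNGAA, the core of the gamma-activated site (GAS-like), or GAAANNGAA, the core of the interferon-stimulated response element (ISRE-like), searched on both strands. A GAS-like and an ISRE-like match can share bases.
Cxcl9: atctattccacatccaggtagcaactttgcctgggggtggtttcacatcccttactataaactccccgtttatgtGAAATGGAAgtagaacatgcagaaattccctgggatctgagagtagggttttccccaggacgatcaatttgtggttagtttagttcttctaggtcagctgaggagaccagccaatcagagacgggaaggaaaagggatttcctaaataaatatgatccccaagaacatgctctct
Tgtp2: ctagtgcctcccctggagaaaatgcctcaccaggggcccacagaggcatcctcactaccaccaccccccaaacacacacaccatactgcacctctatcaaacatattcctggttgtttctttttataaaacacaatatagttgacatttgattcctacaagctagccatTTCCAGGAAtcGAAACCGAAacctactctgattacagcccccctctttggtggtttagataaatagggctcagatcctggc
Gbp2: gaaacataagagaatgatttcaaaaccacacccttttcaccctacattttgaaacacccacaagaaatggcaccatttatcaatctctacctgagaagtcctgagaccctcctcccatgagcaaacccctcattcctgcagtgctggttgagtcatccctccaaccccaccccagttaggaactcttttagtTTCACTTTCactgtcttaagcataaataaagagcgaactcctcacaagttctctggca
Cxcl10: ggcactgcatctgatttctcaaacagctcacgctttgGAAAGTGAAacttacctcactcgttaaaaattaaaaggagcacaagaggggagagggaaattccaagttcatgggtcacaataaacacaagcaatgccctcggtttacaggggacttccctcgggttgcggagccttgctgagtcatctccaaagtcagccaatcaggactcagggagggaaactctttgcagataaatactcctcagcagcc
Tgtp1: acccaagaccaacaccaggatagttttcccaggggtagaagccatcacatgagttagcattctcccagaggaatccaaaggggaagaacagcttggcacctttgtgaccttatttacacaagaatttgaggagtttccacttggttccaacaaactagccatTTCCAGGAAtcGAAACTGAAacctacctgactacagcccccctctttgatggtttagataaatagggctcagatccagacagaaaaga

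The ISRE-like match of Cxcl9 (chr5:92328080-92328329, minus strand) began 175 bases before the start, that of Cxcl10 (chr5:92348890-92349139, minus strand) 213 bases and that of Gbp2 (chr3:142620413-142620662, plus strand) 58 bases. Tgtp2 (chr11:49064213-49064462, minus strand) held a GAS-like match at 81 and an ISRE-like match at 70 bases before the start, and Tgtp1 (chr11:48992247-48992496, minus strand) held them at 88 and 77 bases. Of 75 promoters found for the 99 genes of these lists, 40 (53.3%) held at least 1 of the motifs. The same was true of 15.3% of all 27025 genes with a promoter in the table, for GAS-like letters 8.13% and for ISRE-like letters 8.18%. Among all genes called higher, 339 of 2124 with a promoter (16%) held a motif, against 14% of the 10095 tested genes with a promoter. A match describes the letters in this window and does not show that a factor binds there.

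Interferon signalling genes, from receptors to transcription factors, were mostly higher in KOA. Of 20 listed, 16 rose and none fell, with a median of 0.47, against 20.7% higher and 13.5% lower over all genes tested. Without KOA library 2, 11 rose and 1 fell. The kinase gene Jak2 measured 47.1, 43.7 and 39.8 TPM in KOA and 22.4, 26.3 and 22 TPM in WT (0.86 ± 0.17, adjusted p 0.000872). The factor gene Irf1 was at 116.3, 138 and 113 TPM in KOA, against 54.1, 48.3 and 51 TPM in WT (1.24 ± 0.22, adjusted p 0.000261). For Irf1 every KOA library was more than 2 times as high as any WT library. Nlrc5, the transactivator of MHC class I genes, measured 7.34, 14.5 and 7.3 TPM in KOA and 1.74, 1.76 and 2.81 TPM in WT (1.74, adjusted p 0.000453). Ciita, that of MHC class II genes, measured 5.52, 8.74 and 6.65 TPM in KOA and 0.743, 1.25 and 1.42 TPM in WT (1.89, adjusted p 0.00166). Irf7 rose by 1.47 (adjusted p 0.000923).

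Guanylate-binding proteins and immunity-related GTPases, which attack the vacuoles of intracellular pathogens, had a median of 2.70, the highest of the 29 role lists, and 17 of 18 rose. All 18 had every KOA library above every WT library, as did 25.1% of all genes tested. The share called higher over all genes tested was 20.7%. Gbp2 (chromosome 3, 142620663 to 142638008) measured 167.8, 173 and 145.9 TPM in KOA and 7.18, 12.2 and 15.7 TPM in WT (3.74 ± 0.42, adjusted p 2.13e-06). Gbp4 was at 21.3 to 30.3 TPM in KOA and 0.394 to 1.15 TPM in WT (3.89), and Iigp1 at 53.4 to 64.4 TPM in KOA and 2.26 to 8.46 TPM in WT (3.38). The near-identical neighbours Tgtp1 and Tgtp2 rose by 3.43 and 3.97; they share reads, so the split between them is uncertain. Gbp10, the member that was not called, measured 1.16 to 1.54 TPM in KOA and 0 to 0.101 TPM in WT (adjusted p 0.0726). It entered the test through KOA alone, so its separation followed from the filter. Of 27 tested effectors of type I interferon, 24 rose, with a median of 1.26, and 19 to 24 rose when any of the 6 libraries was left out. Ifi35 measured 49.5, 51.6 and 50.3 TPM in KOA, against 18.9, 20.4 and 16.7 TPM in WT (1.39 ± 0.13, adjusted p 1.82e-07). The antiviral genes Oasl1 and Oasl2, of the oligoadenylate synthase family, rose by 1.42 and 1.92, Parp14 by 1.72 and Ifit2 by 1.54.

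MHC class I molecules present peptides, cut by the proteasome and carried into the endoplasmic reticulum by the TAP transporter, to CD8 T cells. Of 22 genes of this pathway, 17 rose and 1 fell, with a median of 1.30, and the same counts were found when any of the 6 libraries was left out. All genes tested gave 20.7% higher and 13.5% lower. The heavy chain gene H2-K1 (chromosome 17, 33996012 to 34000619) measured 2021, 2518 and 1717 TPM in KOA, against 265.9, 341.9 and 370.4 TPM in WT (2.67 ± 0.27, adjusted p 5.76e-07). H2-D1 was at 1286 to 1965 TPM in KOA and 265.9 to 397.7 TPM in WT (2.17 ± 0.23, adjusted p 1.25e-06). The light chain gene B2m measured 1840, 2156 and 1523 TPM in KOA and 663.8, 829.7 and 795.1 TPM in WT (1.26 ± 0.22, adjusted p 0.00023). The whole list summed to 8865, 10484 and 7909 TPM in KOA libraries, against 3408, 3838 and 3749 TPM in WT libraries. The transporter subunit Tap2 rose by 2.68 to 53.7 to 81.2 TPM in KOA, against 6.94 to 11 TPM in WT. Tapbp, which loads peptides onto the heavy chain, rose by 1.62 (adjusted p 3.19e-07) and H2-Q4 by 2.54, and H2 genes are close copies among which reads can be shared. Pdia3, an endoplasmic reticulum disulfide isomerase, was the member that fell, with 307.3 to 370.8 TPM in KOA and 409.3 to 449.7 TPM in WT (−0.38, adjusted p 0.00186).

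Of 6 tested T cell attracting chemokines, Cxcl9, Cxcl10, Cxcl11 and Cxcl16 rose, against 20.7% of all genes tested. Cxcl10 (chromosome 5, 92346638 to 92348889) measured 94.1, 104.5 and 72.7 TPM in KOA and 5.53, 10.4 and 6.36 TPM in WT (3.46 ± 0.41, adjusted p 3.86e-06). Cxcl11 was at 10.3 to 13.7 TPM in KOA and 0.457 to 1.01 TPM in WT (2.90). The call of Cxcl16 (0.44, adjusted p 0.0321) was lost without KOA library 2 (0.164), KOA library 3 (0.074), WT library 1 (0.0916) or WT library 3 (0.093). Ccl5 measured 2.14, 10.7 and 1.78 TPM in KOA and 2.79, 1.58 and 0 TPM in WT and did not pass (adjusted p 0.127). Markers of T and NK cells themselves were scarce. Of 18, Cd3d was the one tested (−0.08, adjusted p 0.8), and their sum was 5.72, 12.9 and 5.59 TPM in KOA and 6.01, 5.94 and 6.05 TPM in WT. In these sorted cells, fewer cells of a type and less RNA per cell cannot be told apart, for these markers and for those below.

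Among cytokines that recruit myeloid cells, 4 of 17 tested rose and 1 fell, against 20.7% higher and 13.5% lower over all genes tested. Their median of 0.13 turned to −0.01 without KOA library 2. Ccl20, a ligand of Ccr6, measured 7.32, 6.62 and 9.63 TPM in KOA and 0.832, 1.4 and 0.653 TPM in WT (2.18 ± 0.37, adjusted p 0.000188). Csf3, the granulocyte growth factor G-CSF, measured 1.66, 2.09 and 2.59 TPM in KOA and 0.883, 0.302 and 0.317 TPM in WT (1.06 ± 0.29, adjusted p 0.00837). It was under 1 TPM in every WT library and entered the test through KOA, so its direction followed from the filter. Il33, an alarmin, rose by 0.74 (adjusted p 0.0059), with KOA library 3 at 95.6 TPM inside the range of WT (78.8 to 103.6 TPM), and the call was lost with the 2 groups fitted alone (0.0962) or with the 9 libraries of 6419c5 (0.0563). The calls of Il34 (0.45, adjusted p 0.0226) and Csf1 (−1.0, adjusted p 0.0409), ligands of the same receptor, rested on few libraries. That of Il34 was lost without KOA library 2 (0.0607), KOA library 3 (0.0611) or WT library 2 (0.121), and that of Csf1 without KOA libraries 1 (0.0904), 2 (0.105) or 3 (0.0544) or WT libraries 2 (0.0501) or 3 (0.184). Cxcl1, a neutrophil chemokine, was at 37.7 to 43.8 TPM in KOA and 51.7 to 88 TPM in WT, and Csf2 at 4.85 to 10.3 TPM in KOA and 10.6 to 22 TPM in WT. Neither passed (adjusted p 0.397 and 0.175), although their groups did not overlap. Cxcl1 (−0.76) did pass with the 2 groups fitted alone (adjusted p 0.0338) or with a block for the replicate number (0.0489).

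Of 15 tested checkpoint ligands and tryptophan enzymes, 7 rose and 2 fell, with a median of 0.31. Without KOA library 2, 6 rose and 5 fell. Shares over all genes tested were 20.7% higher and 13.5% lower. Cd274, the gene of PD-L1, measured 7.77, 16.9 and 9.56 TPM in KOA, against 3.18, 5.35 and 3.81 TPM in WT (1.23 ± 0.32, adjusted p 0.00622). Tnfrsf14, the receptor HVEM, was at 20.2 to 32.3 TPM in KOA and 4.03 to 8.18 TPM in WT (1.78 ± 0.23, adjusted p 1.27e-05). Cd47, the signal that restrains phagocytosis, rose by 0.58 (adjusted p 0.000373). Siglec15, described above, fell. Ido1, also described above, rose and entered the test through KOA alone. NF-kappaB feedback genes and targets had 9 of 17 members higher, none lower and a median of 0.48. The subunit gene Nfkb2 measured 105.8 to 149.5 TPM in KOA and 53.1 to 65.4 TPM in WT (1.04 ± 0.14, adjusted p 1.73e-05). Vcam1, an adhesion molecule for leukocytes, rose by 0.91 and the inhibitor gene Nfkbie by 1.13.

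MHC class II genes, which tumour cells can express under interferon gamma and which macrophages and dendritic cells express by nature, rose in 5 of 7 tested cases, with a median of 2.02. Among all genes tested, 20.7% were called higher. Cd74, the invariant chain, measured 434.9, 1308 and 608 TPM in KOA and 79.6, 161.9 and 197.5 TPM in WT (2.35 ± 0.58, adjusted p 0.00396). H2-DMb1, which helps load peptides, was at 49.6, 76.9 and 53.1 TPM in KOA and 5.97, 12.4 and 12.2 TPM in WT (2.48 ± 0.51, adjusted p 0.000923). KOA library 2, with the highest macrophage sum, was also highest in class II genes, which summed to 777.7, 2948 and 1069 TPM in KOA libraries and 240.2, 536 and 582.6 TPM in WT libraries. Without it, 2 of 7 rose and 1 fell, and H2-Aa (1.41, adjusted p 0.102), H2-Ab1 (1.24, 0.168) and H2-Eb1 (1.63, 0.086) were not called. Without WT library 1, 2 rose, and the same 3 genes were not called (adjusted p 0.0885, 0.126 and 0.0756); H2-Ab1 was also lost without WT library 2 (0.0529). KOA libraries 1 and 3 had fewer macrophage transcripts than any WT library and more class II transcripts than any.

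**Figure D3:**
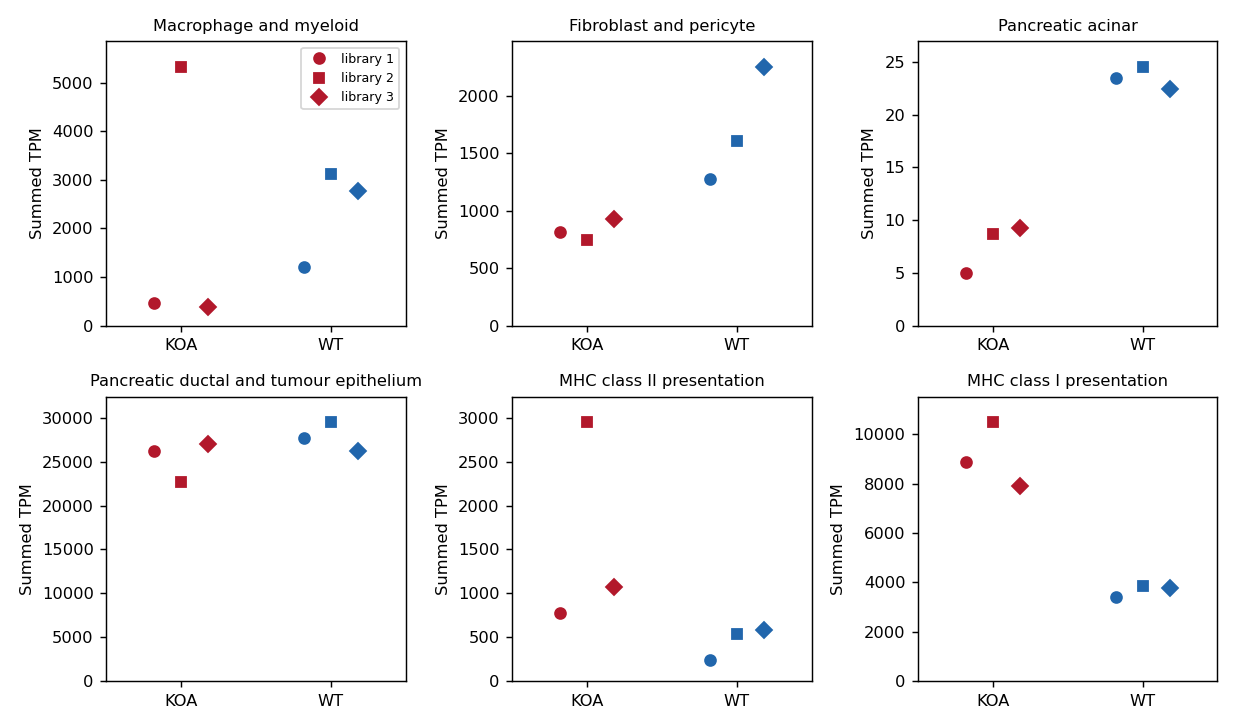
Summed TPM of 6 marker lists, 1 panel each, with KOA left of WT and a symbol for each library (circle, square and diamond for libraries 1, 2 and 3). The macrophage panel has KOA library 2 at 5317 TPM and the other KOA libraries at 458.2 and 393.6 TPM, below the WT range, and the fibroblast and acinar panels have all KOA libraries below all WT libraries.

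Markers of the other cell types that a tumour holds were compared in the same way, beside shares of 20.7% higher and 13.5% lower over all genes tested. Of 22 macrophage and myeloid markers none was called, with a median of −1.06; without KOA library 2, 18 of 22 were lower and the median was −2.30. The complement subunit gene C1qa measured 42.6, 849.6 and 32.9 TPM in KOA and 120.9, 392.7 and 375.4 TPM in WT. Fibroblast and pericyte markers were lower in 7 of 13 cases and higher in none, with a median of −0.95. They summed to 817.7, 746.4 and 929.8 TPM in KOA and 1280, 1611 and 2249 TPM in WT. Of the 2 acinar markers tested, Cela1 fell by 1.70 (adjusted p 8.78e-05) and Prss2 by 0.64 (adjusted p 0.0197), while 5 of the 13 were listed at 0 in all 6 libraries; without KOA library 3, WT library 2 or WT library 3, 1 of the 2 was called. Among 7 endothelial markers Emcn was called (−0.75, adjusted p 0.0449), and not without any of KOA libraries 1 and 2 and WT libraries 1 and 2. Their sum was 17.3 to 23.8 TPM in KOA and 16.1 to 28.1 TPM in WT. Granulocyte markers summed to 18.1 to 34.2 TPM in KOA and 13.1 to 26.8 TPM in WT, with Retnlg higher among 6 tested. Of 4 dendritic cell markers Zbtb46 and Ccr7 were higher, and the list summed to 5.74 to 25.5 TPM in KOA and 6.36 to 13.1 TPM in WT. No B cell marker was tested, with sums of 0.734 to 2.31 TPM in KOA and 0.476 to 1.66 TPM in WT. None of 4 erythroid markers passed. Of 4 markers of skin, fat and muscle, Lor and Acta1 were lower, and 1 of them was called when any library other than WT library 1 was left out.

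Some prostaglandin genes of synthesis and uptake fell in KOA, while 7 of those tested did not pass in either direction. Of 14 tested, 5 fell and 2 rose, with a median of −0.30, against 13.5% lower and 20.7% higher over all genes tested. Ptgs2, the gene of inducible cyclooxygenase (chromosome 1, 150100031 to 150108234), measured 62.5, 35 and 36 TPM in KOA and 76.3, 86 and 147.2 TPM in WT (−1.19 ± 0.29, adjusted p 0.00353; exact two-sided permutation p 0.1, the smallest possible). Its constitutive relative Ptgs1 measured 8.2, 15.6 and 5.46 TPM in KOA and 29.5, 47.9 and 72.9 TPM in WT (−2.27 ± 0.32, adjusted p 2.35e-05). Slco2a1, the prostaglandin transporter, fell by 1.44 and Pla2g4a, the phospholipase that frees arachidonate, by 0.62. Ptger1, a receptor of prostaglandin E2, rose by 0.55 to 31.9 to 42.2 TPM in KOA, against 21.5 to 28.3 TPM in WT, and Ptger4 was the other gene called higher, while 1 of the 2 was called without KOA library 3 or WT library 1.

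On the lists of TGF-beta signalling, of the mesenchyme and of matrix breakdown, more genes fell than rose in KOA. The fibroblast markers given above were lower too, and their part in these results was not tested. The shares over all genes tested were 13.5% lower and 20.7% higher. Of 19 TGF-beta genes 9 fell and 1 rose, with a median of −0.37. The ligand gene Tgfb1 was not called (−0.25, adjusted p 0.224), with 70.6 to 106.8 TPM in KOA and 92.2 to 126.9 TPM in WT. Ltbp1, which holds the latent ligand in the matrix, measured 48.5, 44.1 and 54.6 TPM in KOA and 121.6, 116.4 and 177.9 TPM in WT (−1.46 ± 0.13, adjusted p 1.48e-07). The co-receptor gene Tgfbr3 was at 0.379 to 0.599 TPM in KOA and 5.4 to 15.3 TPM in WT (−2.67 ± 0.28, adjusted p 9.16e-07). Tgfbr3 entered the test through WT alone, so a fall was its only possible direction. Inhba, the activin subunit, fell by 1.75 and Ltbp2 by 2.22. Mesenchymal genes fell in 8 of 15 cases and rose in none, with a median of −0.55. Acta2, smooth muscle actin, measured 21.3, 17.5 and 23.2 TPM in KOA and 65.8, 60.4 and 100.8 TPM in WT (−1.80 ± 0.20, adjusted p 1.91e-06). The matrix genes Fn1 and Sparc fell by 1.35 and 1.12. Snai1 and Twist2, transcription factors of epithelial to mesenchymal transition, fell by 1.96 and 1.66, to at most 3.05 and 4.7 TPM in KOA, against at least 10.5 and 11.1 TPM in WT. Of 14 matrix metalloproteinases and their inhibitors 6 fell and none rose, with a median of −0.54. The inhibitor gene Timp1 measured 136.8, 82.5 and 69.4 TPM in KOA and 237.1, 167.8 and 243.1 TPM in WT (−1.20 ± 0.21, adjusted p 0.000207), and Mmp10 fell by 2.09 and Mmp19 by 1.77. Mmp23 fell by 0.80, and by 0.52 without WT library 2 (adjusted p 0.0268).

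On the epithelial and squamous lists more genes rose than fell in KOA, and on the gastric list more fell than rose. Among all genes tested, 20.7% were called higher and 13.5% lower. Of 16 tested junction genes and simple keratins, 8 rose and 2 fell, with a median of 0.74; 5 rose without KOA library 3 or WT library 3, 4 rose without WT library 1, and 1 fell without KOA library 1 or 2. Krt19, a keratin of ductal epithelium, measured 4671, 4411 and 4672 TPM in KOA and 982.1, 1295 and 771.2 TPM in WT (2.2 ± 0.18, adjusted p 6.81e-08). Krt8 rose by 1.02, and Cdh1, the gene of E-cadherin, measured 563, 516.7 and 588 TPM in KOA and 265.1, 355.7 and 226.2 TPM in WT (1.0 ± 0.16, adjusted p 7.9e-05). The call of Krt18 (0.40, adjusted p 0.00803) was lost with median-of-ratios size factors (0.0648). The tight junction gene Cldn7 fell to 1.31 to 2.3 TPM in KOA, against 3.79 to 8.11 TPM in WT (−1.25, adjusted p 0.00113). Of 8 tested squamous and basal genes 5 rose and 2 fell, with a median of 1.09. Across the alternatives 3 to 5 rose and 1 to 3 fell, and the median ran from 0.01 to 1.49. The squamous list summed to 837.4, 682 and 915.6 TPM in KOA libraries and 1297, 1665 and 752.9 TPM in WT libraries. Krt15 was at 7.47 to 9.63 TPM in KOA and 0.179 to 0.769 TPM in WT (2.68), and Krt13 rose by 1.82 and Sfn by 1.0. Sprr1b, a protein of the cornified envelope, went down to 0.144, 0 and 0.435 TPM in KOA, against 4.03, 6.61 and 7.22 TPM in WT (−2.53 ± 0.19, adjusted p 2.34e-08). Ivl was the other gene that fell. Krt15 entered the test through KOA alone and Sprr1b through WT alone. Trp63 and Krt5, which define basal squamous cells, did not reach the minimum to be tested. Of 13 tested gastric genes and mucins 5 fell and 2 rose, with a median of −0.58. Across the alternatives 2 to 6 fell and 1 to 3 rose, and the median ran from −0.90 to 0.50. The gastric list summed to 413.2, 388.4 and 532.5 TPM in KOA libraries and 401.1, 630.5 and 345.8 TPM in WT libraries. Tff1 measured 0.766, 1.63 and 0 TPM in KOA and 13.9, 16.2 and 12.7 TPM in WT (−3.19 ± 0.44, adjusted p 1.98e-05). The gastrokine genes Gkn1 and Gkn3 fell to at most 0.509 and 0.758 TPM in KOA, against at least 4.01 and 6.27 TPM in WT. Gkn2 was listed at 0 in all KOA libraries and at 5.38, 9.12 and 1.36 TPM in WT. All of these gastrokine genes were under 1 TPM in every KOA library, so they entered the test through WT. Muc13, a membrane mucin, rose by 1.41 and Vsig1, a junction protein of the stomach, by 0.91.

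Adhesion receptors and basement membrane chains changed in both directions, with 8 of 19 integrins and laminins higher, 6 lower and a median of 0.42. All genes tested gave 20.7% higher and 13.5% lower. Itga1, a collagen-binding chain, measured 101.1, 82 and 101.8 TPM in KOA and 22.3, 32.5 and 24.8 TPM in WT (1.81 ± 0.17, adjusted p 3.68e-07). Itgb6, which activates latent TGF-beta, was at 7.13 to 8.49 TPM in KOA and 1.29 to 2.63 TPM in WT (1.67). The hemidesmosome chain Itgb4 and the laminin receptor chain Itga3 rose by 0.91 and 0.83, and Itgb5 fell by 0.70. Complement genes rose in 5 of 11 cases and fell in 1, with a median of 0.42; 3 rose without KOA library 3 or WT library 3, and 3 fell without KOA library 2. Cd55, a brake on complement, measured 19.7, 14.5 and 15.4 TPM in KOA and 1.64, 5.29 and 1.91 TPM in WT (2.26 ± 0.24, adjusted p 1.32e-06). Cfb rose by 1.09 and C2 by 1.18, and Cfi, which cuts activated complement, fell by 1.89. The call of C3 (0.82, adjusted p 0.0201) was lost without KOA library 3 (0.0986) or WT library 3 (0.0899).

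**Figure D4:**
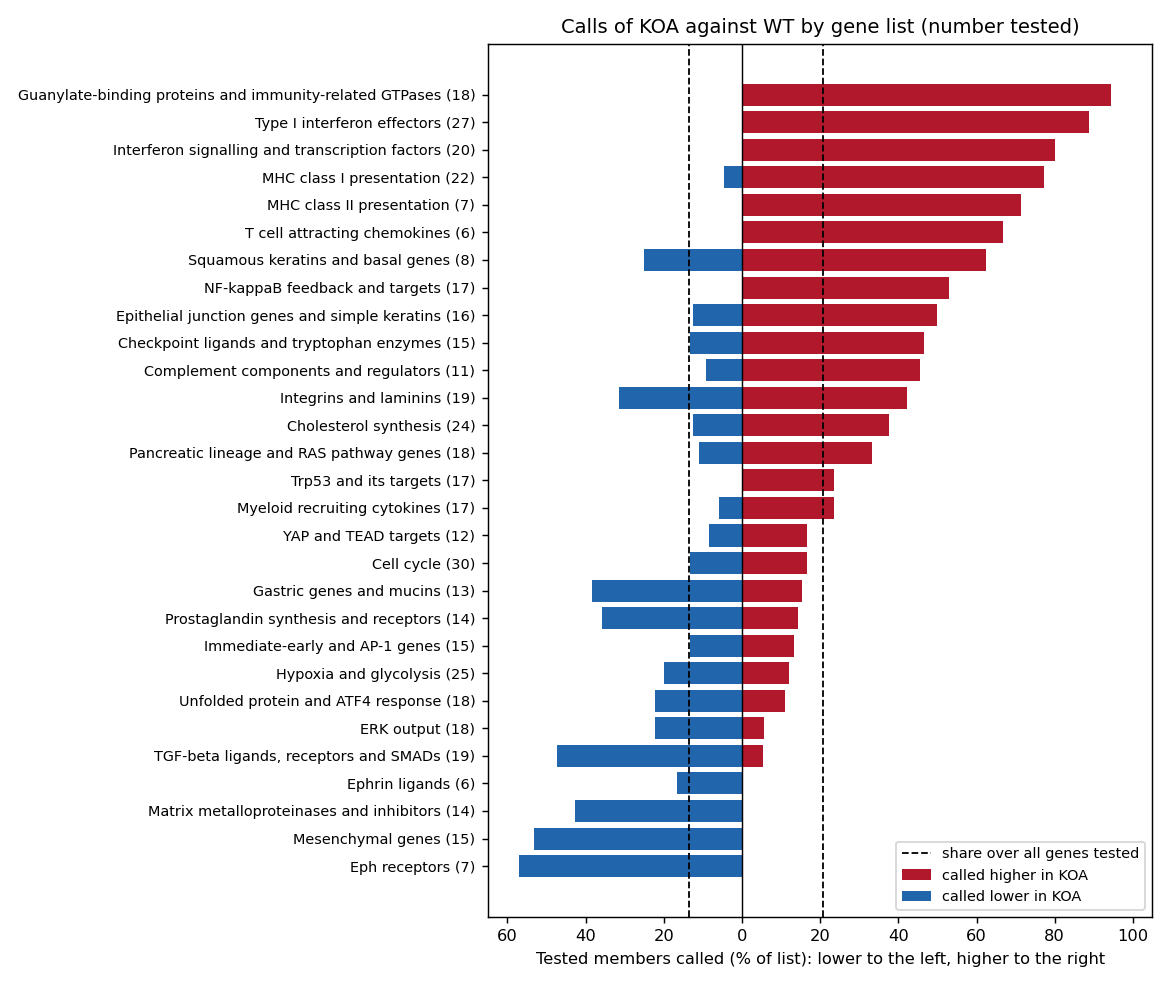
Share of tested members called higher (bars to the right) and lower (bars to the left) in KOA against WT for the 29 role lists, in percent. Dashed lines mark the shares over all tested genes, 20.7% higher and 13.5% lower, and the guanylate-binding protein, type I interferon, interferon signalling and MHC class I lists extend farthest to the right.

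Downstream of Eph receptors, ERK output genes had a median of −0.01, with 1 of 18 higher and 4 lower. For this and the next lists, the shares over all genes tested were 20.7% higher and 13.5% lower. Spred1 and Spred3, inhibitors of RAS signalling, fell by 1.10 and 0.72, and the transcription factor gene Etv5 fell to 18.8, 20.8 and 19.2 TPM in KOA, against 33.4, 36.2 and 46.9 TPM in WT (−0.94 ± 0.14, adjusted p 5.53e-05). The feedback inhibitor Spry1 rose by 0.73 (adjusted p 0.00112) and Epha4 was the fourth gene that fell; without KOA library 2, 2 rose and 5 fell. Immediate-early genes also had a median of −0.01, with 2 of 15 higher and 2 lower. Klf6 was at 128.5 to 143.8 TPM in KOA and 52.7 to 74.7 TPM in WT (1.07), Ier2 and Egr2 fell by 0.64 and 1.24, and the call of Fosl2 (0.43) was lost when KOA library 2 (0.36, adjusted p 0.0652) or WT library 1 (0.26, 0.103) was left out. Among YAP and TEAD genes, with a median of 0.02, Ajuba rose by 0.44, Axl, a receptor tyrosine kinase, fell by 0.62, and the rise of Crim1 (0.55) was lost without WT library 1 (0.052), when 1 gene rose and 2 fell. The MAP kinase gene Mapk3 rose by 0.38. Of 18 tested pancreatic lineage and RAS pathway genes 6 rose and 2 fell, with a median of 0.16, and 1 fell without KOA library 1, KOA library 2 or WT library 3. The genes that rose included the lineage factor genes Pdx1 (0.54), Gata6 (0.65) and Hnf4a (0.52). Myc was at 88.7 to 97 TPM in KOA and 69.5 to 80.5 TPM in WT and did not pass (0.29, adjusted p 0.0919).

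For the counts in this paragraph, the shares over all genes tested were 20.7% higher and 13.5% lower. Of 24 cholesterol genes 9 rose and 3 fell, with a median of 0.31. Mvk, mevalonate kinase, measured 45.5, 55.7 and 44.3 TPM in KOA and 26.2, 27.1 and 25.4 TPM in WT (0.86 ± 0.11, adjusted p 1.09e-05). Of 25 genes of hypoxia and glycolysis 3 rose and 5 fell; Egln3 rose by 1.30, Pfkp by 1.17 and Hk2 by 0.69, and Pdk1 and P4ha1 fell by 0.70 and 0.96. Cell cycle genes had a median of −0.10, with 5 of 30 higher and 4 lower, close to the shares over all genes tested. Rrm2, a subunit of ribonucleotide reductase, was at 104.7 to 132.1 TPM in KOA and 55.6 to 63.5 TPM in WT (0.95 ± 0.13, adjusted p 1.27e-05), and Birc5 and Tk1 rose by 0.78 and 0.63. Leaving out KOA library 1 or 2 or WT library 1 or 2 left 3 of the 30 higher; none was lower without KOA library 3 or WT library 3, and 2 were without KOA library 2 or WT library 1. Of 17 tested genes among Trp53 and its targets, Ccng1 (0.36), Zmat3 (0.39), Perp (0.75) and Fas (0.79) were higher and none lower. On this list 2 were called without KOA library 2 or WT library 3, and 0 without WT library 1. Perp was not called without any of KOA libraries 1, 2 and 3, WT library 1 or WT library 3 (adjusted p 0.0728 to 0.193). Fas was not called without KOA library 1 (0.111), KOA library 2 (0.156) or any WT library (0.0527 to 0.0888). Without KOA library 1, Trp53inp1 was called (0.44, adjusted p 0.0269). With the 2 groups fitted alone, none of the 4 passed (0.0614 to 0.116), and Perp did not pass after quantile normalization (0.0844). Trp53 measured 172.5 to 194.6 TPM in KOA and 169.6 to 192.4 TPM in WT (0.04, adjusted p 0.834), a value whose sign depends on the scaling, and Cdkn2a changed by −0.06 (adjusted p 0.815). Among 18 genes of the unfolded protein response 2 rose and 4 fell, with a median of −0.11; none rose without KOA library 2 or WT library 3, 1 rose without KOA library 1, KOA library 3 or WT library 2, and quantile normalization gave 1 higher and 7 lower. Atf5 fell by 0.90 and the chaperone gene Hspa5 by 0.35, while the fall of Ddit3 (−0.71) was lost without WT library 3 (0.0748).

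KOA was then set against KOB, the other knockout line of 6419c5, to find where line A stands apart from it. Limma called 683 genes higher in KOA (5.17%) and 1686 lower (12.8%), 122 and 248 of them by at least 1, with a median of −0.03. The share of calls that were higher was 28.8%, against 52.3% with median-of-ratios size factors (1454 higher, 1327 lower) and 49.4% after quantile normalization (1434 higher, 1468 lower). Robo1 and Robo2, receptors of Slit guidance cues, were among the 8 genes farthest above KOB. Robo2 measured 5.44, 4.98 and 6.38 TPM in KOA, 0.334, 0.122 and 0.178 TPM in KOB and 0.249, 0.35 and 0.234 TPM in WT (KOA minus KOB 2.44 ± 0.12, adjusted p 2.87e-10). Robo1 was at 11.9 to 13.4 TPM in KOA, 1.35 to 1.52 TPM in KOB and 1.87 to 2.1 TPM in WT (2.50 ± 0.17, adjusted p 2.7e-08). Both were higher in every KOA library than in any KOB or WT library. Robo2 was under 1 TPM in every WT library and entered the test through KOA, so its place above WT followed from the filter. Hmgn3, a nucleosome-binding protein, measured 27.6, 22.2 and 32 TPM in KOA, 2.11, 0.933 and 1.71 TPM in KOB and 18.7, 14.7 and 16.9 TPM in WT (KOA minus KOB 3.46 ± 0.20, adjusted p 2.62e-09). The microtubule linker gene Hook1 and the neuronal ubiquitin hydrolase gene Uchl1 were above KOB by 2.53 and 2.36. Agr2 (2.29) lost its call without KOB library 2 (0.0577), and Phgr1 was above KOB by 2.37. Against WT, KOA was not called for Agr2 (0.50, adjusted p 0.559), Phgr1 (0.13, 0.883) or Rps27rt (−0.87, 0.737). The ribosomal retrogene Rps27rt, at 2837, 855.2 and 1993 TPM in KOA and 15.2, 0.00407 and 1.64 TPM in KOB, shares its sequence with its parent gene and is uncertain.

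**Figure D5:**
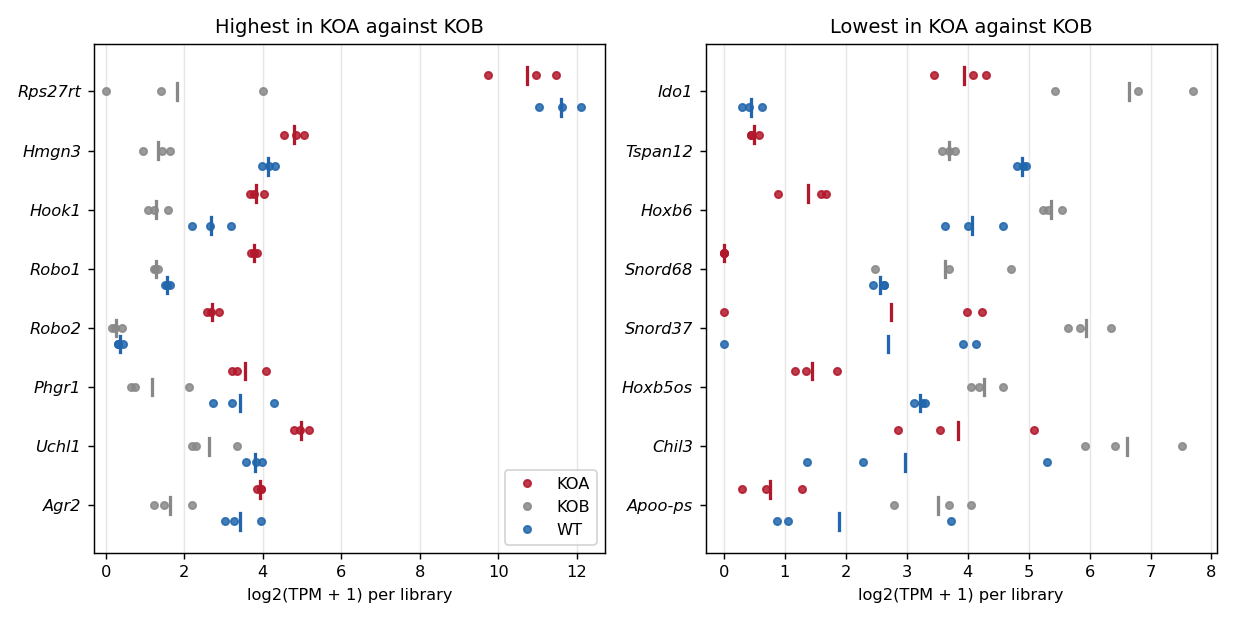
TPM of the 8 genes farthest above and the 8 farthest below KOB in KOA, as log2(TPM + 1), with a point for each library of KOA (red), KOB (grey) and WT (blue) of 6419c5 and a tick at the mean of a group. Robo1 and Robo2 are higher in all KOA libraries than in any library of KOB or WT, and Hoxb6 and Tspan12 are lower in all KOA libraries than in any library of KOB or WT.

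Among genes below KOB, Hoxb6 measured 2.03, 2.18 and 0.845 TPM in KOA, 39, 45.8 and 36.7 TPM in KOB and 22.8, 15.1 and 11.4 TPM in WT (KOA minus KOB −3.99 ± 0.22, adjusted p 1.11e-09). Its antisense neighbour Hoxb5os fell below KOB by 2.82, and without known strand the reads of overlapping genes cannot be told apart. Tspan12 was at 11 to 12.8 TPM in KOB, between KOA and WT (KOA minus KOB −3.19). Ido1 was lower in KOA than in KOB: it measured 18.6, 15.9 and 9.96 TPM in KOA and 42.2, 206.9 and 109.8 TPM in KOB (−2.70 ± 0.45, adjusted p 0.000414), and the call held without any of the 6 libraries. The call of Chil3 (−2.78) was lost without KOA library 3 (0.0699) or KOB library 3 (0.0735), the pseudogene Apoo-ps was lower by 2.75, and the small nucleolar RNA gene Snord68 was listed at 0 in all KOA libraries, against 4.6, 25.2 and 12 TPM in KOB, a call that was lost when any of these 6 libraries other than KOB library 1 was left out (adjusted p 0.0513 to 0.103). Against WT, KOA was not called for Chil3 (0.86, adjusted p 0.407), Apoo-ps (−1.12, 0.198) or Snord68 (−2.56, 0.0687). Interferon genes were highest in KOB library 2, in which Cxcl9 was at 339.2 TPM and Gbp2 at 772.8 TPM, against 50.2 and 85.2 TPM and 132.5 and 243 TPM in the other KOB libraries. In KOA against KOB, 7 interferon signalling genes were lower and Jak1 higher, and 3 to 9 were lower when any library of these lines was left out. Among all genes tested, 12.8% were lower and 5.17% higher in KOA than in KOB. The call of Jak1 (0.29, adjusted p 0.018) was lost without KOA library 1 (0.0626), KOA library 2 (0.0541) or KOB library 3 (0.095). Of MHC class I genes 4 were lower, and 0 without KOA library 1, KOA library 3, KOB library 2 or KOB library 3, and 13 without KOB library 1. Of guanylate-binding proteins and GTPases Gbp10 alone was lower (−1.42, adjusted p 0.0457), and none without KOB library 2 or any KOA library, and 7 without KOB library 1. Nlrc5 (−1.13, adjusted p 0.0232) and H2-K1 (−0.79, 0.0456) were not called without KOB library 2 (adjusted p 0.131 and 0.255), KOA library 1 (0.0936 and 0.107) or KOA library 3 (0.0886 and 0.15), nor H2-K1 without KOB library 3 (0.148). Fibroblast markers summed to 2709, 1818 and 1964 TPM in KOB, above all KOA libraries, and 5 of 13 were lower in KOA than in KOB. With them, 6 of 15 mesenchymal genes and 7 of 19 TGF-beta genes were lower in KOA than in KOB and 1 of each list was higher, but 3 TGF-beta genes were lower without KOB library 2. No TGF-beta gene was higher without any of KOA libraries 1, 2 and 3 or KOB library 1, and no mesenchymal gene without KOA library 1, KOA library 3, KOB library 2 or KOB library 3. Whether the fibroblast transcripts had a part in this was not tested. Macrophage markers summed to 501.7, 690.5 and 528.4 TPM in KOB.

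The last comparison asked where the change of KOA differed from the change of the knockout lines of 6694c2, with which it shares no library. The difference (KOA minus WT in 6419c5, less the mean of KOA and KOB minus WT in 6694c2) was higher in 1669 genes (12.6%) and lower in 1679 (12.7%), by at least 1 in 429 and 458. Rescaling without Mir6236 left 43.1% of calls higher (1567 higher, 2065 lower), against 49.9%, while median-of-ratios size factors gave 55.7% (2124 higher, 1687 lower) and quantile normalization 52.6% (2000 higher, 1805 lower). Tff2, which fell in KOA of 6419c5, averaged 652.8 ± 329.9 TPM in KOA, 2912 ± 605.8 TPM in KOB and 208.7 ± 54 TPM in WT of 6694c2 (SD, n = 4 each), a difference of −7.08 ± 0.48 (adjusted p 1.95e-08). Reg1, a secreted lectin of regenerating pancreas, averaged 0.962 ± 0.887 TPM in KOA and 11.7 ± 2.97 TPM in WT of 6419c5, and 70.7 ± 53.3 TPM in KOA, 122.1 ± 14 TPM in KOB and 9.73 ± 3.98 TPM in WT of 6694c2 (difference −5.77). Tmem45a, Gkn1 and Lcn2, an iron-scavenging lipocalin, differed by −5.70, −4.89 and −4.80. Of 13 gastric genes and mucins, 7 had a lower difference and 2 a higher one. In the opposite direction stood Krt79, with 31.8 ± 5.15 TPM in KOA, 9.04 ± 0.934 TPM in KOB and 33.8 ± 2.27 TPM in WT of 6694c2 (difference 4.62 ± 0.38, adjusted p 1.72e-07), and Gjb2, which averaged under 1 TPM in every group of 6694c2 (difference 3.72). Tmigd1, Pcdhgb2, Pxdn and Prl2c3 had differences of 3.61, 3.60, 3.49 and 3.27; members of the protocadherin gamma cluster share exons, so Pcdhgb2 is uncertain.

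On the cholesterol list, 21 of 24 genes had a higher difference and none a lower one, with a median of 0.90, and 20 to 21 had a higher one when any KOA or WT library of 6419c5 was left out. Among all genes tested, 12.6% had a higher and 12.7% a lower difference. Mvk averaged 48.5 ± 6.24 TPM in KOA and 26.2 ± 0.855 TPM in WT of 6419c5 (SD, n = 3 each), and 35.3 ± 2.47 TPM in KOA, 27 ± 2.88 TPM in KOB and 35.6 ± 3.42 TPM in WT of 6694c2 (SD, n = 4 each; difference 1.05 ± 0.14, adjusted p 2.75e-05). MHC class II genes had a lower difference in 5 of 7 cases, but in none without KOA library 1 or WT library 3 and in 1 without KOA library 3 or WT library 2. For MHC class I the count was 6 of 22, and 2 without KOA library 1, KOA library 3, WT library 2 or WT library 3. No guanylate-binding protein or immunity-related GTPase differed between the clones, with a list median of −0.23, which does not show that their changes were equal. Of 7 Eph receptors 5 had a lower difference and 1, Epha2, a higher one. Genes of hypoxia and glycolysis had 10 higher and 1 lower of 25, and integrins and laminins 9 and 3 of 19. Complement genes had 2 higher and 6 lower of 11, but none higher without WT library 1 or 3, and 4 lower without KOA library 3.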

How the data were processed

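RNA of sorted tumour cells was measured in 21 libraries of 2 clones, in 6 groups of 3 or 4 libraries. The authors deposited a table of TPM per gene symbol, made with Salmon on mm10 per the submitters' processing notes; the version, the annotation, the strand setting and any filter are not given in the sources used here. The columns letter the knockout lines A and B where the labels number them, and groups follow the column names. Values were taken as log2(TPM + 1), with genes at 1 TPM or more in at least 3 of the 6 KOA and WT libraries. All 21 libraries entered 1 limma fit (lmFit and eBayes with a trend, limma 3.58.1, R 4.3.3), estimating 6 group means, with Benjamini-Hochberg adjustment over the 13209 genes. Genes with an adjusted p below 0.05 are the calls. Exact permutation tests used scipy 1.17.1 and were two-sided. The procedure was tested on simulated data.

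The genes named are the 14 largest changes in each direction against WT, 8 against KOB and 6 between the clones, among genes called, with a mean of at least 2 TPM in either group and groups that did not overlap. Unnamed gene models and microRNAs were passed over. To these come from every list up to 5 tested members, taken by smallest p, and a fixed set with Epha2, Ptgs2, Tgfb1 and immune genes. Further genes are named where they were the few called on a list or markers of a cell type, after their values were seen. The members and the 29 role and 12 marker lists were chosen with earlier results of these data known. Alternatives were pseudocounts of 0.1 and 5, other filters, scalings, fits and sample sets, a replicate block and leaving out each library. Sequences and coordinates are from RefSeq tables of GRCm38.p6. Results for some genes on the lists are not reported here.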

Additional observations from a re-analysis of the deposited data

Results flagged for a closer look

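Of 45 genes examined (the 28 largest changes of KOA against WT and the fixed genes of interest that were tested), 22 changed by a different amount in KOA of 6419c5 than in the knockout lines of 6694c2, by limma's test of the difference itself, adjusted over all genes. Groups of 3 libraries were not searched for outliers. Of the 22 differences, 6 were positive. Krt79 changed by 3.67 in 6419c5 and by −0.95 in 6694c2 (log2, difference 4.62), Gjb2 by 3.46 and −0.26 (difference 3.72), Krt14 by 3.68 and 0.66 (difference 3.02) and Actr3b by 3.31 and 0.40 (difference 2.91). Csf3 changed by 1.06 in 6419c5 and by −0.60 in 6694c2 (difference 1.66, adjusted p 0.00269), and Epha2 by −0.22 in 6419c5 and −1.21 in 6694c2 (difference 0.99).

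The other 16 differences were negative. Tff2 changed by −4.41 in 6419c5 and by 2.67 in 6694c2 (difference −7.08), and the non-coding RNA Halr1 by −3.78 and 0.68 (difference −4.46). Tspan11 changed by −4.14 in 6419c5 and 0.23 in 6694c2 (difference −4.38), Hotairm1 by −4.87 and −0.53 (difference −4.33), Tspan12 by −4.40 and −0.45 (difference −3.95) and Nptx1 by −4.89 and −1.0 (difference −3.89). The differences of the secreted proteins were −3.81 for Dcn, −3.77 for Sod3 and −3.76 for Ntn1, whose changes in 6694c2 were −0.19, −0.11 and −0.09. H1fx, Tead2 and Cpn1 had differences of −3.56, −3.53 and −3.08. Mmp3 and Siglec15 changed by −4.12 and −4.08 in 6419c5 and by −2.18 and −2.99 in 6694c2, and their differences were −1.94 and −1.08. The transactivator Nlrc5 changed by 1.74 in 6419c5 and by 2.99 in 6694c2 (difference −1.25, adjusted p 0.0315), and B2m by 1.26 and 2.04 (difference −0.78, adjusted p 0.0446). The difference of Siglec15 was not called without KOA library 1 (adjusted p 0.0701), KOA library 2 (0.0594), WT library 1 (0.0598) or WT library 3 (0.0807). That of Nlrc5 was not called without KOA library 1 (0.0848), KOA library 3 (0.0865) or WT library 3 (0.084), and that of B2m without KOA library 1 (0.0737), KOA library 3 (0.126), WT library 2 (0.0972) or WT library 3 (0.0863). The other 19 kept their call when any KOA or WT library of 6419c5 was left out.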

How the results depend on the processing

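Over 194 named genes and up to 19 alternatives each, 3506 of 3663 values of KOA against WT kept their direction and their side of the threshold, 121 lost the call, 22 gained one and 14 changed sign. All sign changes were in genes that were not called. Epha2 gained a call after quantile normalization (−0.31) and with median-of-ratios size factors (−0.27). For KOA against WT, fitting the 2 groups alone called 2829 genes, 1744 higher and 1085 lower, and leaving out a library called 3740 to 4231. For KOA against KOB, the 2 groups alone called 414 higher, the 9 libraries of 6419c5 called 1265 (284 higher, 981 lower), median-of-ratios size factors 1454 higher and quantile normalization 1434 higher. Leaving out a library of KOA or KOB called 1502 to 2080, 344 to 637 higher and 1084 to 1443 lower. The cause of these shifts was not tested. Sign changes were found for Trp53 (−0.01 with median-of-ratios size factors, −0.04 after quantile normalization), Snord37 (−0.02 after quantile normalization) and, with libraries left out, for Phgr1 (−0.21 to 0.56), Snord37 (−1.29 to 1.43), Efna3 (−0.12 to 0.33), Trp53 (−0.005 to 0.09) and Cdkn2a (−0.17 to 0.02).

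The replicate numbers come from the column names and nothing ties equal numbers to a shared animal or day. Deviations of same-numbered KOA and WT libraries correlated at 0.175, 0.196 and −0.167, and those of KOA and KOB at 0.161, 0.181 and −0.127, so they were not treated as pairs. A fit with a replicate block called 1890 genes for KOA against WT (1186 higher, 704 lower) and 792 for KOA against KOB (165 higher, 627 lower). The depth of the libraries is unknown, so low values carry no counting error here. Each line of 6419c5 has 3 libraries, and the main p-values take their spread from all 21 libraries of the fit.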

Other observations

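Hox genes, whose order along a chromosome follows the body axis and which keep a record of position in adult cells, were on no list, and they were looked at after their values had been seen in the largest changes. Of 39 Hox genes in the table, 10 were tested, and in KOA 7 were lower and 2 higher than in WT. Over all genes tested, 13.5% were called lower and 20.7% higher. Hoxa11, Hoxb3 and Hoxb5 were under 1 TPM in every KOA library and entered the test through WT. Hoxa9 was under 1 TPM in every WT library and entered through KOA. The direction of these genes therefore followed from the filter. The Hox genes called were all of the Hoxa cluster (chromosome 6) or the Hoxb cluster (chromosome 11), since no Hoxc or Hoxd gene passed the minimum. Hoxa9 measured 5.21, 6.13 and 8.6 TPM in KOA and 0.866, 0.652 and 0.932 TPM in WT (2.05 ± 0.15, adjusted p 1.72e-08), and Hoxa13 7.43, 7.87 and 12.6 TPM in KOA and 1.85, 2.45 and 0.997 TPM in WT. Hoxa10 and Hoxa11 lie between them in the cluster. Hoxa10 was at 24.5 to 31.3 TPM in KOA and 18.5 to 26.9 TPM in WT and was not called (adjusted p 0.0514). Hoxa11 measured 0.0391, 0.595 and 0.403 TPM in KOA, 5.96, 6.21 and 6.93 TPM in KOB and 8.13, 5.92 and 8.01 TPM in WT (KOA minus WT −2.65). Hoxa11 overlaps the antisense gene Hoxa11os, and without a known strand setting their reads cannot be told apart. Hoxa3 was at 2.04 to 2.64 TPM in KOA, 1.93 to 3.11 TPM in KOB and 7.82 to 13.8 TPM in WT.

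Some genes were nearly absent from 1 line and present in the other. There were 19 genes under 1 TPM in all KOA and at 5 TPM or more in all WT libraries, and 6 genes of the opposite kind. Besides genes described above, the 19 include Khdrbs3, an RNA-binding protein, with 0.194, 0.207 and 0.2 TPM in KOA and 12.3, 13.9 and 14.9 TPM in WT, and Agt, the precursor of angiotensin, with 0.343 to 0.553 TPM in KOA and 9.72 to 25.5 TPM in WT. Kctd15 was at 0.38 to 0.442 TPM in KOA, 4.62 to 5.24 TPM in KOB and 6.39 to 14.1 TPM in WT, and the kinase gene Rps6ka2 at 0.69 to 0.81 TPM in KOA, 5.52 to 6.23 TPM in KOB and 8.03 to 14.2 TPM in WT. Among the 6, the transcription factor gene Tbx2 measured 6.44, 7.14 and 5.57 TPM in KOA, 20.2, 12.3 and 27.8 TPM in KOB and 0.678, 0.702 and 0.188 TPM in WT. These genes were chosen by their values and entered the test through 1 line alone, and the counts carry no test.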
